A study of Mus musculus with 96 samples.

Results

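The 10 genes described here encode proteins that fuse, divide or mark mitochondria for removal: Mfn1, Mfn2 and Opa1 (fusion), Dnm1l, Fis1, Mff, Mief1 and Mief2 (fission), and Pink1 and Fundc1 (mitophagy). They were chosen by name, and all 10 were found among the 54150 rows of the count table, which holds 54146 Ensembl genes and 4 transgenes. RNA was sequenced from 96 samples of C2C12, a mouse myoblast line, in 35 conditions of 2 or 3 replicates. The labels do not say whether replicates came from separate cultures, so p-values measure the spread between these samples, which may be technical.

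Proliferating myoblasts were stable lines carrying a transgene from a lentivirus behind the doxycycline-inducible TRE3G promoter, and all of them were kept in 300 ng/ml doxycycline. The transgenes were luciferase (the control line), LbNOX (a bacterial oxidase that turns NADH into NAD+ in the cytosol), mitoLbNOX (the same enzyme sent to mitochondria) and NDI1 (a yeast NADH dehydrogenase that bypasses complex I). Myotubes had spent 4 days in low serum and were untransduced, or carried GFP or GFP with LbNOX from an adenovirus given 48 hr into low serum; day-1 cells were untransduced cells after 1 day in low serum. Cells received DMSO, piericidin (complex I inhibitor, 0.5 µM), antimycin (complex III inhibitor, 0.5 µM) or oligomycin (ATP synthase inhibitor, 1 µM) for 10 hr. Some myotubes received the uncoupler BAM15 (0.5 µM) or were moved to 5% oxygen the night before, alone or with oligomycin, and some received oligomycin with piericidin. Control and LbNOX myoblasts were also treated for 48 hr with DMSO or with chloramphenicol (20 µg/ml), which blocks mitochondrial translation. The study reports that uridine was present during the chloramphenicol treatment, while its inhibitor media lacked pyruvate and uridine. Low-serum cells had been grown to confluence before the switch. Myoblasts and low-serum cells thus differ in transgene, doxycycline, serum, confluence and time in culture as well as in differentiation, and these cannot be told apart.

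Mitochondria form a network that is continually joined and cut. Mitofusins (Mfn1, Mfn2) join outer membranes and Opa1 joins inner membranes, while the dynamin-like GTPase Dnm1l (DRP1) is drawn to the outer membrane by the adaptors Mff, Mief1 (MiD51) and Mief2 (MiD49) and constricts it, and Fis1 is a further outer membrane protein of the division machinery. Pink1, a kinase that builds up on damaged mitochondria, starts parkin-dependent mitophagy, and Fundc1 is an outer membrane receptor that tethers the autophagosome. Much of the activity of these proteins is set by processing and phosphorylation, which RNA levels do not show.

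The libraries held between 6458295 and 15366745 counts (median 10336588.5). No pair of the 87 replicate pairs was identical. The transgene counts matched the labels, with at least 372 counts in every library that should carry a transgene and 0 in every other. Summed levels of 9 myotube markers were 11.3 to 92.4 CPM (counts scaled to a common library size after TMM normalization) in myoblasts, 12500 to 13280 in day-1 cells and 13920 to 18160 in myotubes. Summed levels of 5 markers chosen for myoblasts, which include desmin (Des) and M-cadherin (Cdh15), ran against that label, from 404 to 867 CPM in myoblasts and 3399 to 4408 CPM in myotubes. Adipocyte and osteoblast markers stayed at or below 1.61 CPM, and macrophage markers at or below 8.29 CPM. Bulk levels cannot tell fewer expressing cells from less RNA per cell.

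All 10 genes passed the filter of 16 counts in every fit. The fusion genes lie at chr3:32529465-32579239, plus strand (Mfn1), chr4:147873599-147904704, minus strand (Mfn2) and chr16:29579334-29654884, plus strand (Opa1) in GRCm38. Fission genes lie at chr16:16312230-16358959, minus strand (Dnm1l), chr5:136953275-136966234, plus strand (Fis1), chr1:82724890-82752394, plus strand (Mff), chr15:80234018-80253371, plus strand (Mief1) and chr11:60728398-60732951, plus strand (Mief2). Pink1 lies at chr4:138313409-138326307, minus strand and Fundc1 at chrX:17556564-17572325, minus strand. Reads were counted without strand, and an exon of Dnm1l overlaps the antisense gene Gm49521 by 196 bases, 1 of Mff overlaps C430014B12Rik on the other strand by 195 bases, and 1 of Mief1 overlaps the coding gene AC140267.1 by 213 bases. Pink1 overlaps the miRNA genes Gm27646 (110 bases) and Mir7019 (69 bases) on its own strand, so reads of these stretches may be split. Precision was lowest for Mfn1, which had only 23 to 129 counts per library, and for Mief2 and Pink1, with as few as 29 and 16 in myoblasts. The median SD within a condition was 15.6%, 11.5% and 11.4% of the mean.

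The bases before the RefSeq starts of Pink1 and Mief2 (GRCm38.p6), the members with the largest change between cell states, are shown with the E-box CANNTG in capitals. Opa1, whose level did not pass the test between states, is shown beside them with CGCATGCG, a form of the NRF1 motif, in capitals. Pink1 spans chr4:138326308-138326546, minus strand, Mief2 chr11:60728148-60728397, plus strand and Opa1 chr16:29579084-29579333, plus strand. The Pink1 sequence ends where its GENCODE gene begins, so the last bases before its RefSeq start are left out.
Pink1: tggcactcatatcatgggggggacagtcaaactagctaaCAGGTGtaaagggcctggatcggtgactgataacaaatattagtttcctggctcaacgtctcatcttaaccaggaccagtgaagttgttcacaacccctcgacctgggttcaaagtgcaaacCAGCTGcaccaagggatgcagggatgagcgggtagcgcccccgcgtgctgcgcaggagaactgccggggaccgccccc
Mief2: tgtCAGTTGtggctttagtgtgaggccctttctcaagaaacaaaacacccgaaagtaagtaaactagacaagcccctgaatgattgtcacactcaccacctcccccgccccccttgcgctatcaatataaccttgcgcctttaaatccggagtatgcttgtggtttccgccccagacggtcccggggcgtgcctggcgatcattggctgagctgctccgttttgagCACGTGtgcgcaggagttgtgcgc
Opa1: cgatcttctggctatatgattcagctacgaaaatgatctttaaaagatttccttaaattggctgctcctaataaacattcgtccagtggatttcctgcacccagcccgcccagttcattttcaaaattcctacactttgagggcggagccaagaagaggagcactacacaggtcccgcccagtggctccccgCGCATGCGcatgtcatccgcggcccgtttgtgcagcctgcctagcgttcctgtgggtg

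Both strands of the 250 bases before each start were searched for 7 motifs, in 32851 promoters and in the 15 entries of the 10 members. CANNTG, which takes in CAGCTG and CACGTG, was found in 66.2% of all promoters and before at least 1 start of 7 members. These were Dnm1l, Fundc1, Mff, Mfn1, Mfn2, Mief2 and Pink1. Mfn1 and Fundc1 did not pass the test between myoblasts and myotubes, and Fis1, which was higher in myotubes, had no match. CAGCTG, in 13% of promoters, was found at Pink1 and Dnm1l, and CACGTG, in 6.02%, at Mief2. CGCATGCG, in 1.55% of promoters, was found at Opa1. TGACGTCA (1.55% of promoters), TGATGNAA (3.45%) and AAGGTCA (4.08%) were found at none of the members. These matches describe the letters of the window and no binding was measured.

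Per kilobase of coding transcript (median length of each gene's coding transcripts), Fis1 had the highest level of the 10 genes in control myoblasts with DMSO, at 120.0 CPM per kilobase, followed by Mff at 66.1. The adaptor Mief2 and the kinase Pink1 were lowest, at 2.18 and 1.41. In untransduced myotubes with DMSO, Fis1 and Mff still led, at 147 and 92.2 CPM per kilobase, and Mfn1 was lowest at 5.59, below Mief2 at 9.54 and Pink1 at 11.7. The order depended on the transcript length taken. By the longest transcript Fundc1 moved from rank 3 to rank 5 in all 3 states, and Mfn1 fell below Mief2 in myoblasts.

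The first comparison asked how the levels of the 10 genes differed between cell states, all with DMSO. In myotubes, 6 of 10 genes were higher than in control myoblasts and none was lower, and 69.4% of the 12766 genes tested were called in either direction (edgeR's quasi-likelihood test with Benjamini-Hochberg adjustment; called means an adjusted p under 0.05). In day-1 cells, 4 of 10 were higher than in myoblasts, with 63.6% of all genes called. Myotubes against day-1 cells gave 4 of 10 higher, with 35.6% of all genes called. These comparisons share their DMSO samples. The median log2 fold change in myotubes against myoblasts was 0.36 over the 10 genes and 0.04 over all genes tested, while the median size regardless of sign was 0.36 for the 10 genes and 0.63 for all genes.

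Pink1 showed the largest difference. Its level was 1.49, 3.18 and 2.60 CPM in the 3 control myoblast samples, 12.7, 13.9 and 13.1 CPM in the 3 day-1 samples and 20.6, 18.4 and 20.8 CPM in the 3 myotube samples. The 3 groups did not overlap, and their order followed time in low serum. The log2 fold change was 3.05 ± 0.17 (SE) in myotubes against myoblasts (adjusted p = 1.87e-15), 2.42 ± 0.17 in day-1 cells against myoblasts (adjusted p = 6.04e-13) and 0.63 ± 0.15 in myotubes against day-1 cells (adjusted p = 0.00114).

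Mief2, one of the adaptors that recruit Dnm1l, had the next largest difference. It was measured at 4.36, 5.58 and 6.59 CPM in myoblasts, 13.8, 15.9 and 18.4 CPM in day-1 cells and 22.3, 21.0 and 28.9 CPM in myotubes. Every low-serum sample lay above every myoblast sample, and every myotube sample above every day-1 sample. Log2 fold changes were 2.16 ± 0.18, adjusted p = 9.34e-12 (myotubes against myoblasts), 1.54 ± 0.18, adjusted p = 1.53e-08 (day-1 cells against myoblasts) and 0.62 ± 0.16, adjusted p = 0.00319 (myotubes against day-1 cells). Without replicate 3 of the myotubes, the highest of the 9 samples, the last value was 0.42 with an adjusted p of 0.0629. The paralogous adaptor Mief1 did not pass, at 58.0, 55.7 and 59.8 CPM in myoblasts and 55.6, 54.6 and 51.0 CPM in myotubes, where every myotube sample lay slightly below every myoblast sample (log2 fold change -0.07 ± 0.08, adjusted p = 0.443).

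The other fission genes were modestly higher in low serum. Mff was 102, 94.4 and 102 CPM in myoblasts, 129, 131 and 136 CPM in day-1 cells and 144, 137 and 134 CPM in myotubes. It rose in day-1 cells (0.42 ± 0.06, adjusted p = 1.28e-07) and in myotubes (0.52 ± 0.06, adjusted p = 1.75e-09) against myoblasts, with no overlap between myoblasts and either state. Fis1 went from 94.1, 97.3 and 92.2 CPM in myoblasts to 108, 115 and 109 CPM in day-1 cells and 122, 118 and 106 CPM in myotubes, again without overlap against myoblasts (day-1 cells 0.23 ± 0.06, adjusted p = 0.00127; myotubes 0.33 ± 0.06, adjusted p = 2.01e-05). Dnm1l, the GTPase itself, was 90.6, 93 and 93.6 CPM in myoblasts, 82.6, 90.7 and 90.6 CPM in day-1 cells and 107, 104 and 107 CPM in myotubes. Only the myotubes stood apart, with a log2 fold change of 0.23 ± 0.06, adjusted p = 0.00197 against myoblasts and 0.30 ± 0.06, adjusted p = 0.000461 against day-1 cells.

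Among the fusion genes, Mfn2, like Dnm1l, was called against myoblasts in myotubes but not in day-1 cells, although every day-1 Mfn2 sample lay above every myoblast sample. It was 84.5, 86.5 and 89.9 CPM in myoblasts, 91.2, 91.0 and 93.3 CPM in day-1 cells and 108, 112 and 115 CPM in myotubes, and its log2 fold change was 0.40 ± 0.07, adjusted p = 2.94e-05 for myotubes against myoblasts and 0.08 ± 0.07, adjusted p = 0.342 for day-1 cells against myoblasts. Mfn1 had a fold change of the same size as Mfn2 in myotubes against myoblasts, 0.40 ± 0.25, but at 6.68, 7.63 and 6.5 CPM in myoblasts and 9.16, 7.78 and 9.93 CPM in myotubes its SE was over 3 times that of Mfn2 and it did not pass (adjusted p = 0.147). Opa1 was 71.2, 67.2 and 67.0 CPM in myoblasts and 64.3, 59.4 and 64.7 CPM in myotubes (-0.08 ± 0.08, adjusted p = 0.359), and did not pass in day-1 cells either (-0.18 ± 0.08, adjusted p = 0.0555). The mitophagy receptor Fundc1 was 38.5, 35.5 and 30.2 CPM in myoblasts and 33.4, 37.9 and 37.8 CPM in myotubes, with overlapping groups (0.10 ± 0.11, adjusted p = 0.412).

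**Figure D1:**
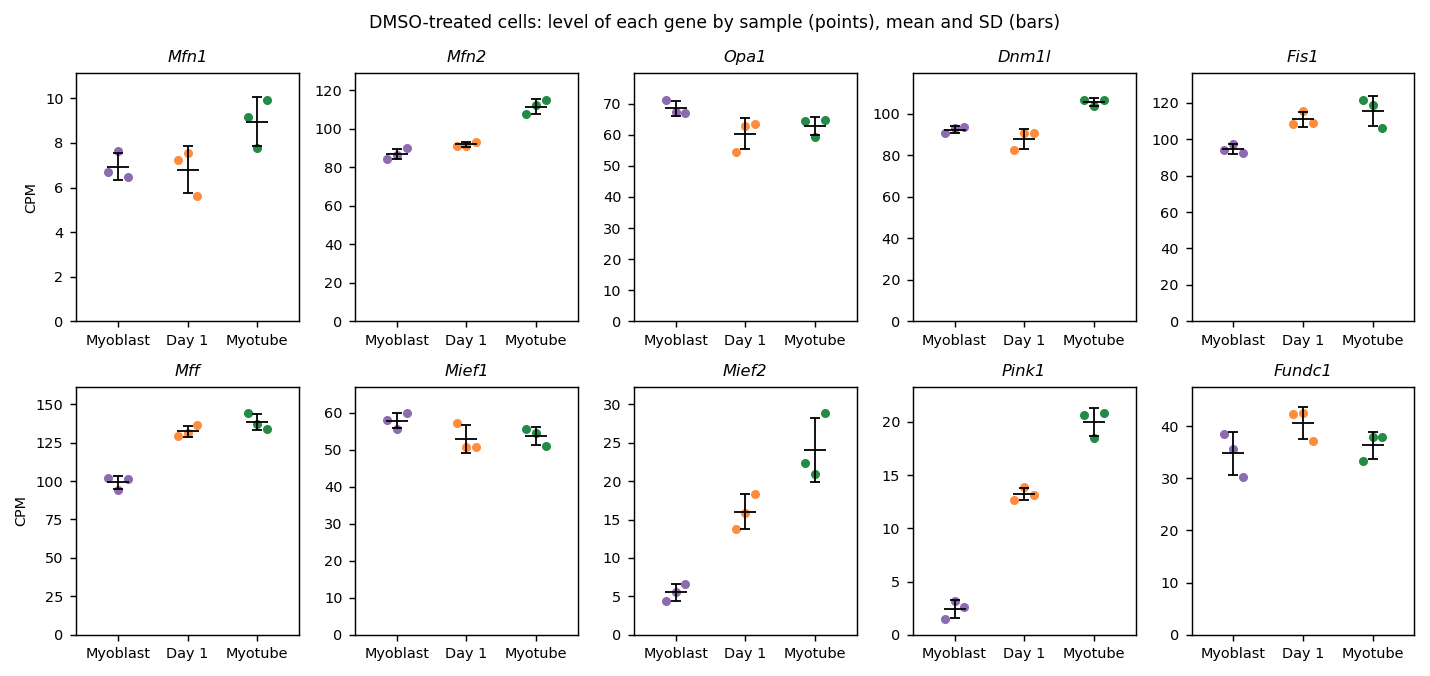
Level of each gene in CPM (linear axis from 0) in DMSO-treated control myoblasts, day-1 cells and untransduced myotubes; points are the 3 samples of a state, and the black bars are the mean and SD. Pink1 and Mief2 step up from myoblast to day 1 to myotube without overlap, Mff and Fis1 are higher in both low-serum states, Mfn2 and Dnm1l stand apart in the myotubes, and Mfn1, Opa1, Mief1 and Fundc1 do not pass the test between myoblasts and myotubes.

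Other genes of these pathways, in lists that hold none of the 10, were compared in the same way. In myotubes against myoblasts 12 of 19 measured mitophagy genes rose and 3 fell, with a median log2 fold change of 0.23, where 35.7% of all genes rose and 33.7% fell. The mitophagy receptor Bnip3 (3.13 ± 0.14) and the autophagy kinase Ulk1 (1.40 ± 0.18) rose most, and the receptor Optn (-0.62 ± 0.08) and its kinase Tbk1 (-0.34 ± 0.08) fell most. Of the fusion and inner membrane genes, 2 of 15 rose and 9 fell (median -0.35), with Miga2 (-1.0 ± 0.10) and Stoml2 (-0.83 ± 0.08) lowest and Slc25a46 (0.37 ± 0.14) and Opa3 (0.21 ± 0.08) highest. Of 13 fission regulators, 3 rose, led by Mtfr1l (0.95 ± 0.06) and the dynamin Dnm2 (0.45 ± 0.08), and 5 fell, led by the SUMO protease Senp5 (-0.44 ± 0.09) and the formin Inf2 (-0.36 ± 0.09). Of 6 mitochondrial transport genes, 4 rose, with Rhot1 (1.28 ± 0.38) and Armcx3 (1.22 ± 0.07) leading, and Rhot2 fell (-0.38 ± 0.16).

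Over the 35 conditions, the mean level of Pink1 ran from 1.79 CPM in NDI1 myoblasts with DMSO to 20.5 CPM in myotubes with BAM15, an 11.5-fold range, and that of Mief2 from 4.13 CPM in control myoblasts with antimycin to 27.5 CPM in GFP myotubes with DMSO, a 6.65-fold range. For both genes all 17 myoblast conditions had lower means than the 3 day-1 conditions, and these lower means than the 15 myotube conditions. Within myoblasts the Pink1 means ran from 1.79 ± 0.0488 (SD, n = 2) to 2.98 ± 0.637 CPM (n = 2, LbNOX with chloramphenicol). The means of the other 8 genes ranged over 1.60-fold (Dnm1l, Mief1) to 2.38-fold (Mfn2). The highest Mfn2 means were those of GFP and LbNOX myotubes, at 138.1 to 159.9 CPM. Untransduced myotube conditions had Mfn2 means of 108.3 to 125 CPM. The genes closest to Pink1 over the 35 condition means, by Pearson's r of log2 CPM, were Trim72 (r = 0.994), R3hdml (r = 0.993) and Camk2a (r = 0.993), and those closest to Mief2 were Trp53inp2 (r = 0.987), Tmem38a (r = 0.986) and Klhl31 (r = 0.985). For Mff they were Kdm7a (r = 0.986), Adprh (r = 0.975) and Klhl33 (r = 0.973) and for Fundc1 Nptn (r = 0.933), Lpar1 (r = 0.927) and Cxcr4 (r = 0.925). Conditions share cell states and control samples, so these values describe the likeness and carry no test.

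**Figure D2:**
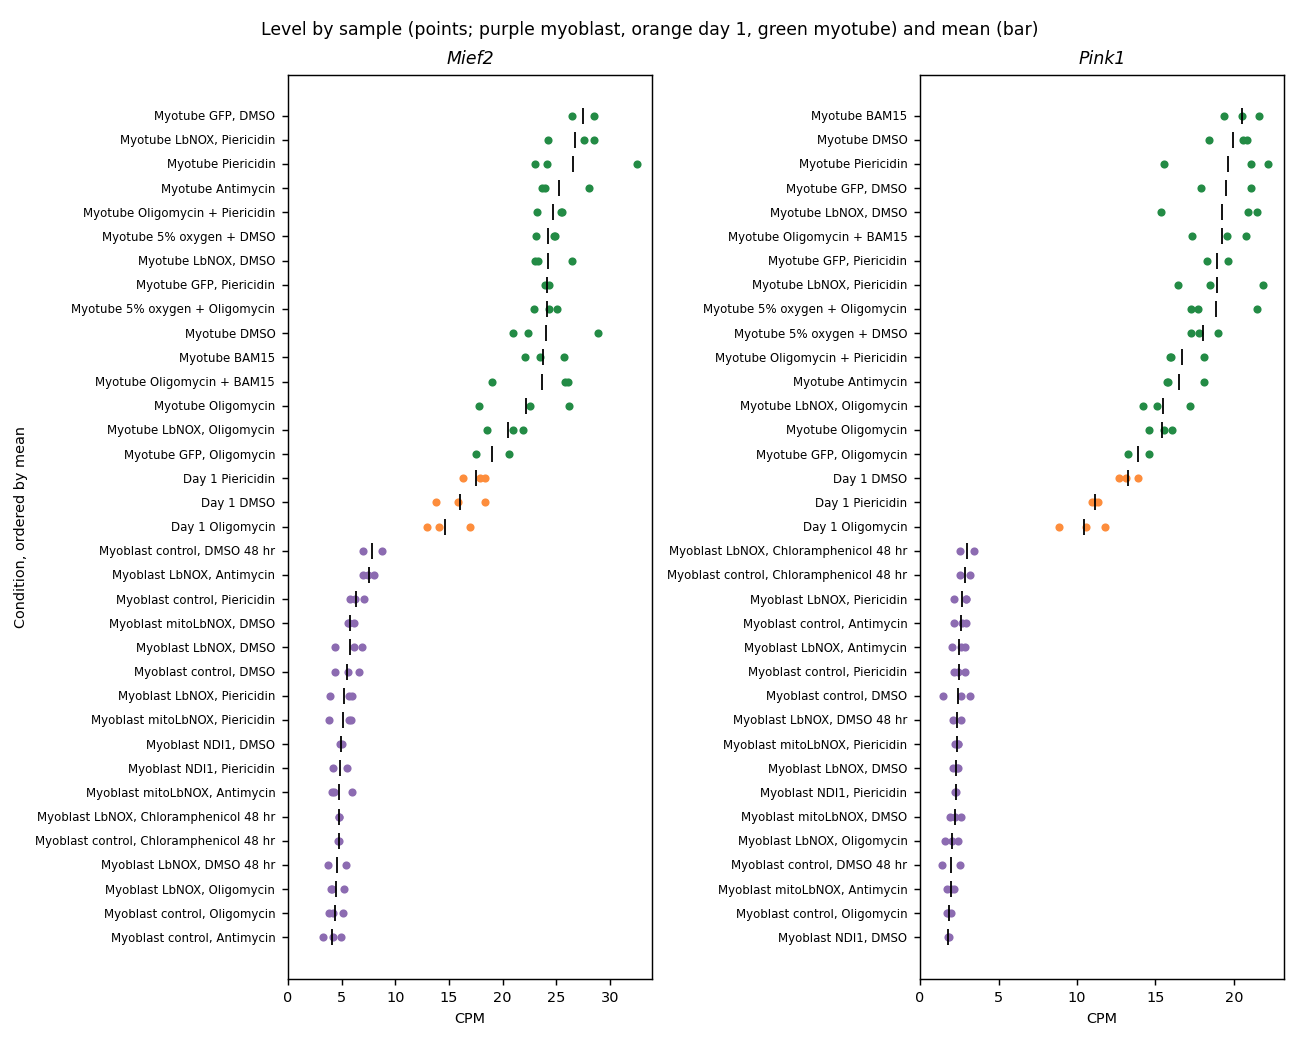
Level of Mief2 and Pink1 in CPM (linear axis from 0) in each sample (points) of the 35 conditions, ordered by mean (black bars) and coloured by cell state. For both genes every myoblast condition is below the day-1 conditions and these are below the myotube conditions, and the lowest myotube means are those with oligomycin alone.

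The next comparisons asked what 10 hr of each inhibitor did in control myoblasts. Of the 10 genes, 6 were called with piericidin (2 higher, 4 lower), against 61.7% of the 11981 genes tested. With antimycin 4 were called (2 higher, 2 lower) against 63.2% of all genes, and with oligomycin 6 were called (4 higher, 2 lower) against 50.8%. In each case Dnm1l and Mief1 rose and Fis1 and Fundc1 fell. The inhibitors share their DMSO samples. The members' share of 60% lay near that of all genes with piericidin and above it with oligomycin, and the 40% with antimycin lay below it. No test compared these shares, and with 10 genes the counts are not read as particular to them. The median size of the log2 fold change over the 10 genes was 0.35 with piericidin, 0.28 with antimycin and 0.29 with oligomycin, against 0.49, 0.51 and 0.36 over all genes. Summed levels of 5 proliferation markers moved with treatment. They were 1390.0 to 1407 CPM with DMSO, 1121 to 1187 CPM with piericidin, 810.3 to 855 with antimycin and 1098 to 1145 with oligomycin. Summed myotube markers were 17.9 to 22.9 CPM with DMSO, and higher with piericidin (27.2 to 33.8 CPM) and antimycin (83.9 to 92.4 CPM), while with oligomycin they overlapped DMSO (22.7 to 31 CPM). The markers chosen for myoblasts were 628 to 646 CPM with DMSO, lower with piericidin (602 to 614 CPM) and oligomycin (528 to 554 CPM), and higher with antimycin (814 to 867 CPM). The 4 macrophage markers, of which Cd68, a lysosomal protein gene, alone passed the filter on low counts, were 1.34 to 2.32 CPM with DMSO, 5.67 to 6.42 CPM with antimycin, 0.950 to 2.16 CPM with piericidin and 0.720 to 1.15 CPM with oligomycin. The part of these shifts in the results was not tested.

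Fundc1 fell furthest. It was 38.5, 35.5 and 30.2 CPM with DMSO, 20.3, 19.4 and 15.8 CPM with piericidin, 17.7, 21.3 and 18.4 CPM with antimycin and 28.4, 23.3 and 20.6 CPM with oligomycin. Each inhibitor group lay below the DMSO group without overlap. The log2 fold changes were -0.88 ± 0.12, adjusted p = 3.19e-07 (piericidin), -0.82 ± 0.12, adjusted p = 9.01e-07 (antimycin) and -0.51 ± 0.12, adjusted p = 0.000562 (oligomycin), and each was called in 12 of 12 alternative settings. The other mitophagy gene, Pink1, was 1.49, 3.18 and 2.60 CPM with DMSO and between 1.74 and 2.95 CPM in the 9 treated samples, and passed with no inhibitor (log2 fold changes 0.06, 0.13 and -0.40, each with an SE of 0.24).

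Fis1 was 94.1, 97.3 and 92.2 CPM with DMSO, 61.9, 61.1 and 53.1 CPM with piericidin, 74.9, 77.0 and 74.2 CPM with antimycin and 66.6, 73.5 and 72.9 CPM with oligomycin, so all treated samples lay below all DMSO samples. Its log2 fold changes were -0.65 ± 0.06, adjusted p = 1.8e-11, -0.28 ± 0.06, adjusted p = 5.23e-05 and -0.40 ± 0.06, adjusted p = 3.68e-07, respectively. Dnm1l moved the other way, from 90.6, 93 and 93.6 CPM with DMSO to 102, 122 and 122 CPM with piericidin, 115, 125 and 122 CPM with antimycin and 114, 131 and 118 CPM with oligomycin. All treated samples lay above all DMSO samples, with log2 fold changes of 0.36 ± 0.07, adjusted p = 0.000123, 0.43 ± 0.07, adjusted p = 8.53e-06 and 0.40 ± 0.07, adjusted p = 3.54e-05.

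The Dnm1l adaptor Mief1 rose most with piericidin. It was 58.0, 55.7 and 59.8 CPM with DMSO, 76.2, 81.8 and 89.5 CPM with piericidin, 72.7, 71.6 and 64.8 CPM with antimycin and 69.5, 68.3 and 60.4 CPM with oligomycin, with no treated sample as low as a DMSO sample. Log2 fold changes were 0.55 ± 0.08, adjusted p = 4.88e-07, 0.31 ± 0.08, adjusted p = 0.000942 and 0.21 ± 0.08, adjusted p = 0.0288. The oligomycin call was held in 7 of 12 alternatives and was lost without replicate 1 or 2 of either group, at a lowest value of 0.17. Mff rose with oligomycin only (122, 119.5 and 111 CPM against 102, 94.4 and 102 CPM with DMSO, 0.26 ± 0.06, adjusted p = 0.000348), and its values with piericidin (0.03 ± 0.06) and antimycin (-0.04 ± 0.06) did not pass. Its level was lower with either of these than with oligomycin, with a log2 difference of -0.23 ± 0.06, adjusted p = 0.00186 for piericidin and -0.30 ± 0.06, adjusted p = 7.4e-05 for antimycin. Mief2 passed with no inhibitor against DMSO, at 0.24 ± 0.21, -0.37 ± 0.22 and -0.32 ± 0.22.

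Mfn2 and Opa1, which fuse outer and inner membranes, fell with piericidin only. Mfn2 was 84.5, 86.5 and 89.9 CPM with DMSO, 70.5, 67.7 and 63.1 CPM with piericidin, 83.3, 88.7 and 108 CPM with antimycin and 89.6, 87.3 and 83.8 CPM with oligomycin. It fell with piericidin (-0.34 ± 0.08, adjusted p = 0.000578), where the samples lay below all others, and did not pass with antimycin (0.15 ± 0.08) or oligomycin (0.01 ± 0.08). Its level under antimycin exceeded that under piericidin by 0.49 ± 0.08, adjusted p = 1.52e-05. Opa1 was 71.2, 67.2 and 67.0 CPM with DMSO, 49.8, 60.9 and 52.1 CPM with piericidin, 63.1, 66.2 and 62.6 CPM with antimycin and 85.8, 71.5 and 77.8 CPM with oligomycin. It fell with piericidin (-0.30 ± 0.08, adjusted p = 0.00279) and rose with oligomycin (0.21 ± 0.08, adjusted p = 0.0369), and its direct difference between these was -0.51 ± 0.08, adjusted p = 1.34e-05. The rise with oligomycin was called in 7 of 12 alternatives and was lost without replicate 1 or 3 of oligomycin or replicate 2 or 3 of DMSO, at 0.14 to 0.20. Mfn1 was 6.68, 7.63 and 6.5 CPM with DMSO and 6.82, 2.53 and 4.96 CPM with piericidin, groups that overlapped (-0.51 ± 0.24, adjusted p = 0.0641).

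Between the inhibitors themselves, 5 of 10 genes differed for antimycin against piericidin (37.2% of all genes called), 7 for piericidin against oligomycin (39.2%) and 3 for antimycin against oligomycin (50%). Besides Mfn2 and Mff above, Fis1 was lower under piericidin than under antimycin (antimycin minus piericidin 0.37 ± 0.06, adjusted p = 4.09e-06) and than under oligomycin (piericidin minus oligomycin -0.25 ± 0.06, adjusted p = 0.000574). Mief1 was higher under piericidin than under antimycin (antimycin minus piericidin -0.23 ± 0.08, adjusted p = 0.0182) and than under oligomycin (0.34 ± 0.08, adjusted p = 0.00071). The Mief1 difference between antimycin and piericidin was lost without antimycin replicate 3 (-0.19) or piericidin replicate 3 (-0.17). Mief2 was 7.04, 6.28 and 5.81 CPM under piericidin, 4.15, 3.29 and 4.96 CPM under antimycin and 5.13, 3.82 and 4.15 CPM under oligomycin, so that piericidin lay above both without overlap (antimycin minus piericidin -0.61 ± 0.22, adjusted p = 0.0286; piericidin minus oligomycin 0.57 ± 0.22, adjusted p = 0.0387). These 2 calls at a low count were held in 6 of 12 and 5 of 12 alternatives. Opa1 was higher under antimycin than under piericidin (0.25 ± 0.08, adjusted p = 0.0222) and lower than under oligomycin (-0.26 ± 0.08, adjusted p = 0.0102). Fundc1 was lower under piericidin (-0.36 ± 0.12, adjusted p = 0.0199) and under antimycin (-0.31 ± 0.12, adjusted p = 0.0401) than under oligomycin, and the antimycin samples overlapped those of oligomycin. The Fundc1 calls were held in 8 of 12 and 5 of 12 alternatives, and the Opa1 calls in 7 of 12 (antimycin against piericidin) and 10 of 12 (antimycin against oligomycin). Leaving out antimycin replicate 2 or piericidin replicate 1 or 3 reduced the 5 calls between those inhibitors to 3, and leaving out oligomycin replicate 1 reduced the 3 calls between antimycin and oligomycin to 1. For Dnm1l no pair of inhibitors passed, with differences of 0.08 ± 0.07, -0.04 ± 0.07 and 0.03 ± 0.07.

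In the pathway lists, 9 of 13 measured fission regulators rose and 4 fell, with a median log2 fold change of 0.55 with piericidin, where 30.9% of all genes rose and 30.8% fell. Senp5 (1.13 ± 0.06) and Mtfr1 (0.91 ± 0.08) rose and Inf2 (-1.06 ± 0.10) and Mtfr2 (-0.61 ± 0.17) fell. With antimycin 9 of 13 rose and 3 fell (32.1% and 31.1% of all genes), and with oligomycin 5 rose and 3 fell (24.5% and 26.3% of all genes). Of 15 fusion and inner membrane genes, 8 rose and 1 fell with piericidin, 5 rose and 3 fell with antimycin, and 8 rose and 3 fell with oligomycin, with the proteases Afg3l2 (1.01 ± 0.38 with piericidin) and Parl (0.67 ± 0.06) highest in each, and Msto1 fell in each (-0.91 ± 0.10 with piericidin). Of 18 mitophagy genes, 6 rose and 7 fell with piericidin, 6 rose and 5 fell with antimycin, and 2 rose and 7 fell with oligomycin. The autophagy adaptor Sqstm1 (p62) had the largest change, 3.21 ± 0.03 with piericidin, 2.99 ± 0.03 with antimycin and 1.77 ± 0.03 with oligomycin, while the receptor Bnip3l fell with each (-0.71 ± 0.07, -0.77 ± 0.07 and -0.94 ± 0.07). Of 6 transport genes, 1 rose and 2 fell with piericidin, 2 and 2 with antimycin, and 0 and 3 with oligomycin.

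**Figure D3:**
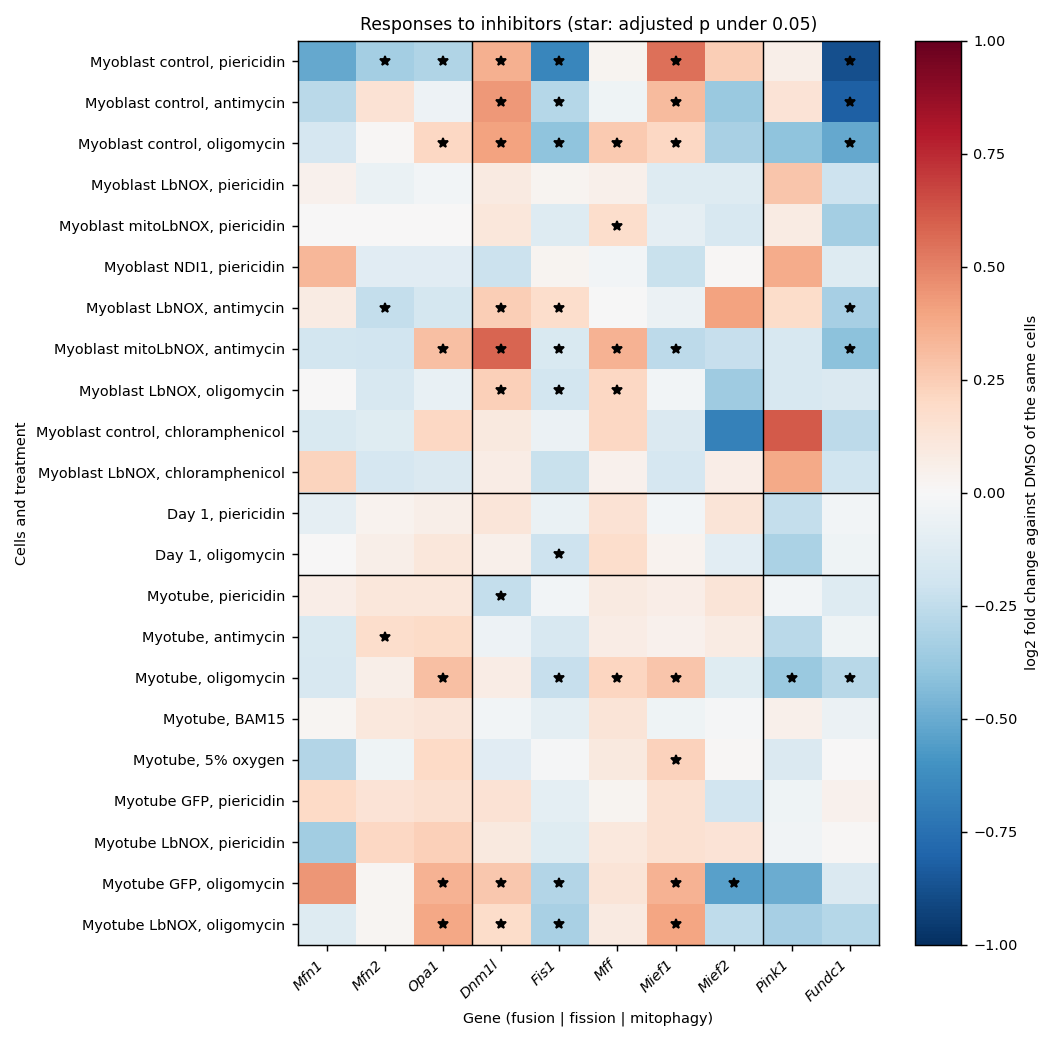
Log2 fold change against DMSO of the same cells for each gene (columns, grouped as fusion, fission and mitophagy) under each treatment (rows, grouped as myoblasts, day-1 cells and myotubes); red is higher, blue is lower and a star marks an adjusted p under 0.05. In control myoblasts Dnm1l and Mief1 rise and Fis1 and Fundc1 fall with each of the 3 inhibitors, the piericidin rows of the LbNOX and NDI1 lines hold no star and that of mitoLbNOX 1, and in myotubes stars gather in the oligomycin rows.

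The transgenic lines addressed whether restoring NADH oxidation changes these responses. With DMSO, none of the 10 genes differed from control myoblasts in the LbNOX line (2.68% of all genes called), the mitoLbNOX line (1.77%) or the NDI1 line (4.61%). The edgeR test gave 0, 1 and 0 of the 10 an unadjusted p under 0.05, and DESeq2 called none of them. Piericidin called none of the 10 in LbNOX myoblasts (8.87% of all genes; 0 of the 10 unadjusted, 0 by DESeq2), Mff alone in mitoLbNOX myoblasts (11.2%; 3 unadjusted, 1 by DESeq2, which was not Mff) and none in NDI1 myoblasts (0.00835%; 2 unadjusted, 0 by DESeq2). The Mff call in the mitoLbNOX line (0.18 ± 0.06, adjusted p = 0.042) was held in 3 of 12 alternatives, and only the omission of DMSO replicate 1 among the 6 libraries left it in place. With DMSO, summed proliferation markers were 1372 to 1397 CPM in LbNOX, 1279 to 1385 CPM in mitoLbNOX and 1385 to 1462 CPM in NDI1 myoblasts. They were lower with piericidin in each line, at 1130.0 to 1235, 1101 to 1155 and 1269 to 1308 CPM, with antimycin in LbNOX and mitoLbNOX myoblasts, at 728 to 769.8 and 829.9 to 870.5 CPM, and with oligomycin in LbNOX myoblasts, at 1033 to 1122 CPM. Summed myotube markers in LbNOX myoblasts were 15.97 to 23.74 CPM with DMSO, 30.7 to 39.2 CPM with piericidin, 33.6 to 40.2 CPM with antimycin and 24.2 to 24.9 CPM with oligomycin. In mitoLbNOX myoblasts they were 16.2 to 20.9 CPM with DMSO, 29.3 to 36.0 CPM with piericidin and 59.5 to 64.6 CPM with antimycin, so they were above DMSO without overlap under each inhibitor in both lines, and in NDI1 myoblasts with piericidin they overlapped DMSO (11.3 to 16.8 against 15.04 to 15.53 CPM). The markers chosen for myoblasts in the LbNOX line were 504 to 550.2 CPM with DMSO, 404 to 419 CPM with oligomycin and 556 to 589 CPM with antimycin. Macrophage markers in that line were 0.433 to 1.49 CPM with DMSO, 4.22 to 4.55 CPM with antimycin, 1.64 to 2.53 CPM with oligomycin and 1.34 to 1.91 CPM with piericidin, the last overlapping DMSO. In mitoLbNOX myoblasts they were 0.252 to 1.14 CPM with DMSO, 6.32 to 8.29 CPM with antimycin and 1.39 to 2.17 CPM with piericidin. The part of these shifts in the results of these lines was not tested.

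Fundc1 with piericidin was 22.9, 32.8 and 26.2 CPM in LbNOX myoblasts against 33.9, 29.9 and 32.2 CPM with DMSO, groups that overlapped. In mitoLbNOX myoblasts it was 25.7, 28.1 and 24.7 CPM against 35.9, 31 and 33.8 CPM, and in NDI1 myoblasts 32.4 and 29.7 CPM against 35.6 and 33.5 CPM, with no overlap in either line but no call (adjusted p = 0.0584 and adjusted p = 0.822). Tested as a difference between responses, the fall of Fundc1 was smaller than in the control line by 0.67 ± 0.17, adjusted p = 0.00178 (LbNOX), 0.54 ± 0.17, adjusted p = 0.0107 (mitoLbNOX) and 0.75 ± 0.19, adjusted p = 0.00157 (NDI1).

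Fis1 with piericidin was 91.4, 98.2 and 92.2 CPM in LbNOX, 84.7, 85.1 and 83.8 CPM in mitoLbNOX and 99.7 and 103 CPM in NDI1 myoblasts, all of them above the 3 control samples with piericidin. Mean Fis1 with DMSO in the same lines was 93.7, 93.5 and 101 CPM. In mitoLbNOX myoblasts the piericidin samples lay below DMSO without overlap, and in the other lines they overlapped it. Its response differed from that of the control line by 0.68 ± 0.08, adjusted p = 1.96e-08, 0.53 ± 0.08, adjusted p = 1.99e-06 and 0.68 ± 0.09, adjusted p = 1.47e-07. The Mief1 response differed in the opposite direction, by -0.67 ± 0.11, adjusted p = 9.03e-06, -0.64 ± 0.11, adjusted p = 2.25e-05 and -0.77 ± 0.12, adjusted p = 7.22e-06. For Dnm1l the differences were -0.26 ± 0.10, adjusted p = 0.0397, -0.24 ± 0.10, adjusted p = 0.0588 and -0.57 ± 0.12, adjusted p = 0.000202, and the LbNOX call was held in only 7 of 18 alternatives. Mean Dnm1l with piericidin was 91.8 against 87.7 CPM with DMSO in LbNOX and 92.0 against 86.4 CPM in mitoLbNOX myoblasts, both with overlap. In NDI1 myoblasts it was lower, 78.6 against 92.9 CPM without overlap, and not called. Mfn2 (0.34 ± 0.11, adjusted p = 0.0149) and Opa1 (0.30 ± 0.12, adjusted p = 0.0388) also differed in the mitoLbNOX line, and the Opa1 call was held in 11 of 18 alternatives and lost on leaving out any 1 of 6 of the 12 libraries. In all, 4, 5 and 4 of the 10 piericidin responses differed in the LbNOX, mitoLbNOX and NDI1 lines, against 44.3%, 42.8% and 42.7% of all genes.

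With antimycin, 4 of the 10 were called in LbNOX myoblasts (46.1% of all genes) and 6 in mitoLbNOX myoblasts (47.7%). In LbNOX myoblasts Fis1 was 100.1, 107 and 102 CPM against 101, 88.4 and 91.8 CPM with DMSO (0.17 ± 0.05, adjusted p = 0.00966), groups that overlapped, and the direction was opposite to the fall in control myoblasts. The call was held in 6 of 12 alternatives. Fundc1 still fell in both lines, with log2 fold changes of -0.33 ± 0.12, adjusted p = 0.024 and -0.41 ± 0.12, adjusted p = 0.0046, and Dnm1l still rose, with 0.25 ± 0.07, adjusted p = 0.00687 and 0.58 ± 0.07, adjusted p = 1.03e-07. Mfn2 fell in LbNOX myoblasts (-0.24 ± 0.08, adjusted p = 0.0165), where it did not pass in the control line, and the 2 responses differed by -0.38 ± 0.11, adjusted p = 0.00535. Leaving out replicate 2 of LbNOX with antimycin reduced the 4 calls to 1, and leaving out its replicate 3 or DMSO replicate 3 reduced them to 2.

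In mitoLbNOX myoblasts with antimycin, Dnm1l reached 135, 119 and 123 CPM, its highest mean of the 35 conditions. Opa1 (0.30 ± 0.08, adjusted p = 0.00347) and Mff (0.34 ± 0.06, adjusted p = 1.06e-05) rose as well, and their responses differed from the control line by 0.35 ± 0.12, adjusted p = 0.0215 and 0.38 ± 0.08, adjusted p = 0.000531. Mief1 fell (-0.26 ± 0.08, adjusted p = 0.00622), opposite to its rise there, and its response differed from the control line by -0.58 ± 0.11, adjusted p = 0.000159. Fis1 fell as in the control line, to 80.6, 82.0 and 81.7 CPM from 97.4, 89.6 and 93.5 CPM with DMSO, without overlap (-0.15 ± 0.05, adjusted p = 0.0205), a call held in 8 of 12 alternatives and lost with no filter on low counts, with only the groups compared, or without antimycin replicate 1 or DMSO replicate 3. The antimycin response differed in 5 of 10 genes for LbNOX (51.5% of all genes) and 4 for mitoLbNOX (31.7%). Among them the low-count Mief2 in the LbNOX line (0.78 ± 0.30, adjusted p = 0.0319) was held in 11 of 18 alternatives and lost on leaving out any 1 of 6 of the 12 libraries. Mfn2 in the mitoLbNOX line (-0.34 ± 0.11, adjusted p = 0.0219) was held in 14 of 18 and lost with only the groups compared or without control antimycin replicate 3, control DMSO replicate 1 or mitoLbNOX DMSO replicate 2. Fundc1 in the LbNOX line (0.49 ± 0.17, adjusted p = 0.0167) was held in 15 of 18. It was lost with no filter or without LbNOX antimycin replicate 1 or control DMSO replicate 1. The Opa1 difference in the mitoLbNOX line was held in 16 of 18. For Fis1 the difference was 0.46 ± 0.08, adjusted p = 1.14e-05 with LbNOX and did not pass with mitoLbNOX (0.13 ± 0.08, adjusted p = 0.217); whether LbNOX and mitoLbNOX differ from each other was not tested.

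With oligomycin in LbNOX myoblasts 3 of the 10 were called (35.2% of all genes). Dnm1l and Mff rose and Fis1 fell, with log2 fold changes of 0.24 ± 0.07, adjusted p = 0.011, 0.21 ± 0.06, adjusted p = 0.00567 and -0.19 ± 0.06, adjusted p = 0.00842. These calls were held in 10 of 12, 9 of 12 and 9 of 12 alternatives. Dnm1l and Mff were lost without DMSO replicate 3 or oligomycin replicate 2, and Fis1 without DMSO replicate 1. None of the 10 oligomycin responses differed between the LbNOX and control lines in edgeR (7.98% of all genes called), although 4 of the 10 had an unadjusted p under 0.05, and DESeq2 called none. The differences ran from -0.28 ± 0.12 (Opa1) to 0.37 ± 0.17 (Fundc1).

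**Figure D4:**
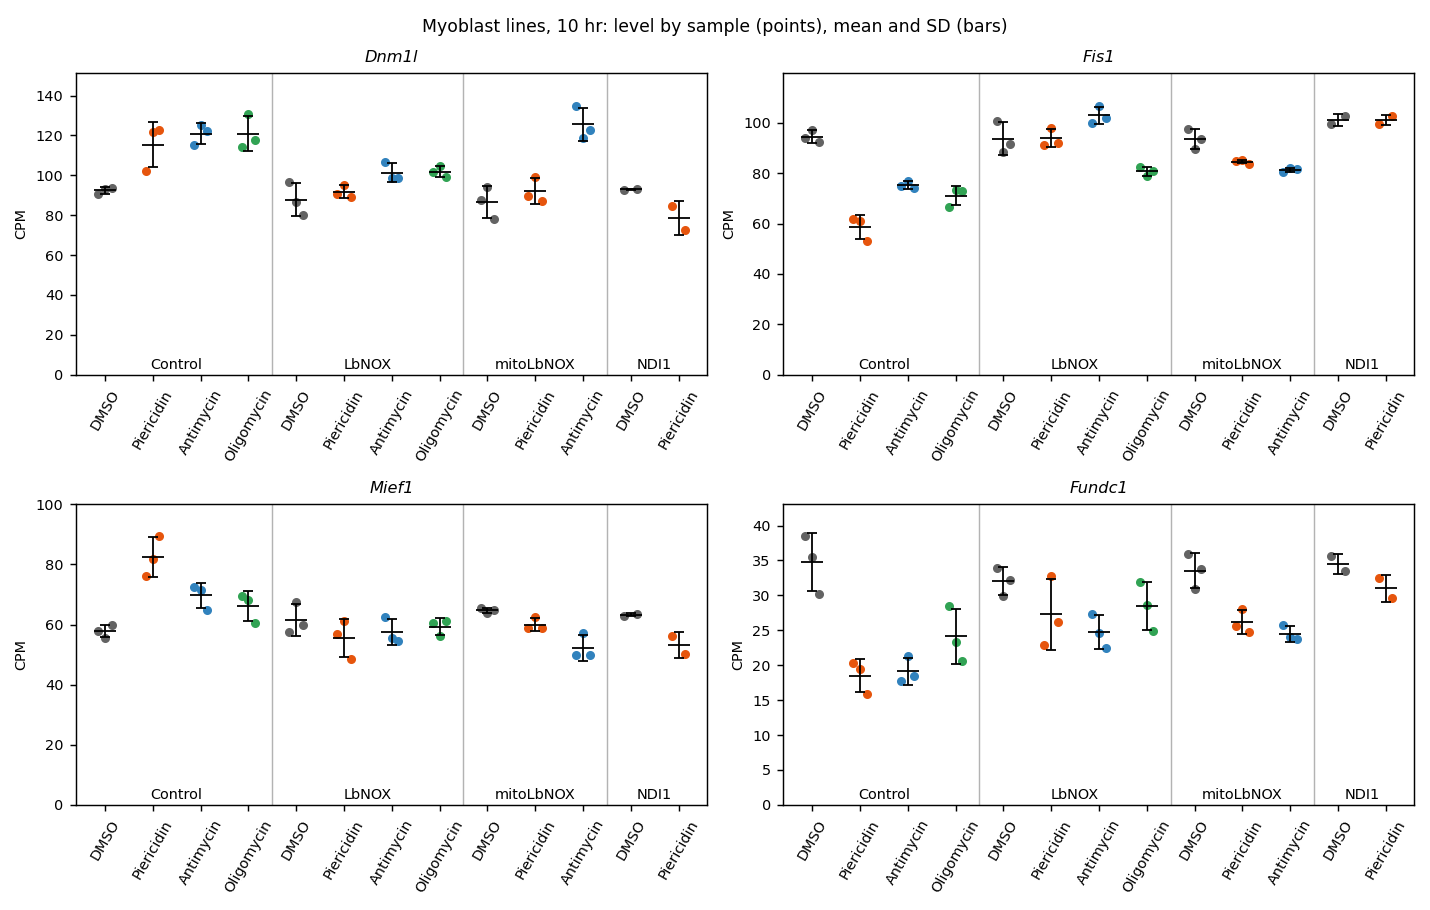
Level of Dnm1l, Fis1, Mief1 and Fundc1 in CPM (linear axis from 0) in each myoblast sample treated for 10 hr (points), with the mean and SD (black bars), by line and treatment. In the control line the 3 inhibitors move each gene away from DMSO without overlap, in the LbNOX and NDI1 lines no piericidin change of these genes passes the test, and Dnm1l with antimycin is highest in the mitoLbNOX line.

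Chloramphenicol for 48 hr called none of the 10 in control myoblasts (8.45% of all genes; edgeR gave 2 of the 10 an unadjusted p under 0.05, DESeq2 called 0), none in LbNOX myoblasts (0.931%; 1 unadjusted, 0 by DESeq2) and no difference between the lines (0.53%; 1 unadjusted, 0 by DESeq2). With 2 replicates a group, low-count genes had wide errors. In control myoblasts Mief2 was 4.64 and 4.79 CPM with chloramphenicol and 8.71 and 6.94 CPM with DMSO (-0.68 ± 0.26, adjusted p = 0.16), and Pink1 was 3.20 and 2.54 CPM against 2.55 and 1.39 CPM (0.61 ± 0.40, adjusted p = 0.424).

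In day-1 cells, piericidin called none of the 10 (2.75% of all genes; edgeR gave 1 of the 10 an unadjusted p under 0.05, DESeq2 called 0). Oligomycin called Fis1 alone (20.7% of all genes), at 94.5, 87.5 and 101 CPM against 108, 115 and 109 CPM with DMSO, without overlap (-0.20 ± 0.06, adjusted p = 0.0335). That call was held in 5 of 11 alternatives, and the omission of any 1 of 5 of the 6 libraries ended it. With oligomycin the summed proliferation markers were 183 to 196 CPM against 236 to 262 CPM with DMSO and the markers chosen for myoblasts 2308 to 2402 CPM against 2768 to 2869 CPM, and the part of these shifts was not tested.

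In untransduced myotubes, oligomycin called 6 of the 10 genes (3 higher, 3 lower), against 33.3% of the 12491 genes tested, and each other single treatment called 1 gene at most. Summed myotube markers were 15180 to 15890 CPM with DMSO and higher under every single treatment, at 17000 to 17580 CPM with oligomycin, 16900 to 17440 CPM with piericidin, 16220 to 16530 CPM with antimycin, 17460 to 18160 CPM with BAM15 and 16450 to 17080 CPM in 5% oxygen. The markers chosen for myoblasts were 4249 to 4408 CPM with DMSO and lower under each, at 3489 to 3772, 3671 to 3976, 3560 to 3652, 3623 to 3897 and 3505 to 3625 CPM in the same order. Macrophage markers were 1.81 to 3.03 CPM with DMSO and did not overlap these with oligomycin (3.92 to 4.19 CPM), piericidin (3.15 to 3.21 CPM) or BAM15 (3.61 to 4.79 CPM). The part of these shifts in the results of the 5 treatments was not tested. Opa1 was 64.3, 59.4 and 64.7 CPM with DMSO and 84.1, 70.3 and 77.6 CPM with oligomycin, Mief1 was 55.6, 54.6 and 51.0 and 71.2, 59.7 and 64.4 CPM, and Mff was 144, 137 and 134 and 162, 156 and 163 CPM. None of these groups overlapped, and the log2 fold changes were 0.30 ± 0.08, adjusted p = 0.00477 (Opa1), 0.28 ± 0.07, adjusted p = 0.0028 (Mief1) and 0.21 ± 0.05, adjusted p = 0.00267 (Mff). Fis1 fell from 122, 118 and 106 CPM to 96.8, 93.7 and 103 CPM (-0.23 ± 0.06, adjusted p = 0.00265), also without overlap.

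Both mitophagy genes fell with oligomycin in untransduced myotubes. Pink1 was 20.6, 18.4 and 20.8 CPM with DMSO and 14.6, 15.6 and 16.1 CPM with oligomycin (-0.37 ± 0.12, adjusted p = 0.0163), and Fundc1 was 33.4, 37.9 and 37.8 and 28.9, 32.4 and 28.6 CPM (-0.28 ± 0.10, adjusted p = 0.0293). Neither pair of groups overlapped, but these were the weakest of the 6 calls. The Pink1 call was held in 8 of 12 alternatives and lost without DMSO replicate 1 or 3 or oligomycin replicate 1 (-0.35 to -0.33). The Fundc1 call was held in 7 of 12 and lost without DMSO replicate 2 or 3 or oligomycin replicate 1 or 3 (-0.25 to -0.24). Dnm1l, which rose with oligomycin in myoblasts, was 107, 104 and 107 CPM with DMSO and 119, 103 and 112 CPM with oligomycin in myotubes, groups that overlapped (0.07 ± 0.06, adjusted p = 0.353).

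Piericidin in myotubes called Dnm1l alone (8.99% of all genes), and in these untransduced cells the direction was opposite to that in control myoblasts. Its level was 87.1, 90.3 and 91.0 CPM with piericidin, below every DMSO sample (-0.24 ± 0.06, adjusted p = 0.0109), and the call was held in 12 of 12 alternatives. The marker shifts with piericidin given above (myotube markers higher, myoblast markers lower, without overlap) were shared by the other single treatments. Their part in this fall was not tested. In transduced myotubes Dnm1l with piericidin did not pass, and its means were not lower. It was 101 and 111 CPM against 96.2 and 95.1 CPM with DMSO in GFP myotubes, without overlap (0.14 ± 0.07, adjusted p = 0.368), and 102, 109 and 111 CPM against 103, 94.5 and 102 CPM in LbNOX myotubes, with overlap (0.10 ± 0.06, adjusted p = 0.375). Myotube markers were higher with piericidin here too. They were 15840 to 17060 against 13920 to 14480 CPM in GFP and 16730 to 17490 against 14260 to 15060 CPM in LbNOX myotubes. Antimycin called Mfn2 alone (12.9% of all genes), at 132, 122 and 121 CPM against 108, 112 and 115 CPM (0.17 ± 0.06, adjusted p = 0.0396), a call held in only 2 of 12 alternatives. BAM15 called none of the 10 in edgeR (25.4% of all genes; 1 of the 10 with an unadjusted p under 0.05, 0 by DESeq2), and 5% oxygen called Mief1 (22.1%), at 62.1, 66.3 and 60.9 CPM against 55.6, 54.6 and 51.0 CPM (0.23 ± 0.07, adjusted p = 0.0164). The Mief1 call was lost without DMSO replicate 3 (0.19) or 5% oxygen replicate 2 (0.17). Summed proliferation markers were 23.3 to 28.9 CPM in 5% oxygen against 136 to 169 CPM with DMSO in ambient oxygen, and their part in this result was not tested.

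Adding a second treatment to oligomycin moved few of the genes. Against oligomycin alone, piericidin with oligomycin called 2 of 10 (20.9% of all genes), BAM15 with oligomycin 3 (26.1%), and oligomycin in 5% oxygen 2 (33.3%). Dnm1l was lower in each, at 89.1, 103 and 98.5 CPM with piericidin added, 94.9, 106 and 94.8 CPM with BAM15 added and 95.4, 95.7 and 103 CPM in 5% oxygen. The log2 differences were -0.21 ± 0.06, adjusted p = 0.0128, -0.18 ± 0.06, adjusted p = 0.0262 and -0.17 ± 0.06, adjusted p = 0.0295, and the groups overlapped with the 119, 103 and 112 CPM of oligomycin alone in each case. Mief1 was lower with piericidin added (-0.20 ± 0.07, adjusted p = 0.0385) and with BAM15 added (-0.21 ± 0.07, adjusted p = 0.0255), Pink1 was higher with BAM15 added (0.32 ± 0.12, adjusted p = 0.0475), and Fundc1 was higher in 5% oxygen (0.27 ± 0.10, adjusted p = 0.0355). The Dnm1l calls were held in 8 of 12, 6 of 12 and 7 of 12 alternatives, those of Mief1 in 4 of 12 and 7 of 12, Pink1 in 3 of 12 and Fundc1 in 5 of 12. Summed proliferation markers were 28.3 to 29.5 CPM with oligomycin in 5% oxygen and 139 to 156 CPM with oligomycin alone, and myotube markers were 16520 to 16880 against 17000 to 17580 CPM. With BAM15 added, proliferation markers were 125.7 to 137.7 CPM. Macrophage markers were 3.92 to 4.19 CPM with oligomycin alone. They were 2.45 to 3.83 CPM with piericidin added, 2.66 to 3.415 CPM with BAM15 added and 1.62 to 2.35 CPM in 5% oxygen. The part of these shifts in the results was not tested. These comparisons share the oligomycin samples, and without oligomycin replicate 1 the 3 counts were 0, 0 and 0.

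Of 19 mitophagy genes in the lists, 3 rose and 5 fell with oligomycin in myotubes (16.9% and 16.4% of all genes). With piericidin 1 rose and 2 fell (4.15% and 4.84% of all genes). With oligomycin Optn (1.01 ± 0.08) and Sqstm1 (0.97 ± 0.03) rose and Bnip3 (-1.36 ± 0.10) and Nlrx1 (-0.67 ± 0.17) fell. Of 13 fission regulators 4 rose, led by Mtfr1 (0.61 ± 0.07) and Dnm2 (0.46 ± 0.06), and Inf2 fell (-0.26 ± 0.09). Of 15 fusion and inner membrane genes 3 rose and none fell, with Stoml2 (0.37 ± 0.10) and Parl (0.37 ± 0.08) highest. The transport gene Mgarp fell by 1.89 ± 0.26 on the log2 scale and Trak1, an adaptor for motors, by 0.47 ± 0.11.

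In transduced myotubes, which were fitted apart from the untransduced ones, oligomycin called 5 of the 10 in GFP myotubes (25.9% of 12397 genes) and 4 in LbNOX myotubes (32%). The markers chosen for myoblasts were lower with oligomycin, at 3560 to 3673 against 4181 to 4378 CPM in GFP and 3399 to 3437 against 4110 to 4154 CPM in LbNOX myotubes. Macrophage markers were higher, at 4.59 to 4.61 against 2.90 to 3.16 CPM and 3.56 to 5.18 against 2.10 to 2.48 CPM, and myotube markers were 15040 to 15200 against 13920 to 14480 CPM and, with overlap, 14940 to 15550 against 14260 to 15060 CPM. Proliferation markers were lower in GFP myotubes, at 114.2 to 115.8 against 125.3 to 131.8 CPM. In LbNOX myotubes they overlapped DMSO, at 105.5 to 116.6 against 115 to 122.1 CPM. The part of these shifts in the calls was not tested. Opa1 was 73.7 and 64.0 CPM with DMSO and 86.1 and 90.5 CPM with oligomycin in GFP myotubes, and 65.0, 70.6 and 64.4 and 83.7, 89.8 and 90.9 CPM in LbNOX myotubes. Mief1 was 56.4 and 48.5 and 67.7 and 67.4 CPM in GFP myotubes, and 54.0, 52.8 and 47.5 and 68.7, 65.9 and 69.8 CPM in LbNOX myotubes. No oligomycin group overlapped its DMSO group, and both genes rose in both kinds of myotube (Opa1 0.35 ± 0.10, adjusted p = 0.0217 and 0.39 ± 0.08, adjusted p = 0.00236; Mief1 0.35 ± 0.10, adjusted p = 0.0197 and 0.39 ± 0.08, adjusted p = 0.0021). Fis1 fell (-0.29 ± 0.07, adjusted p = 0.00479 and -0.32 ± 0.05, adjusted p = 0.000341) and Dnm1l rose (0.27 ± 0.07, adjusted p = 0.0126 and 0.18 ± 0.06, adjusted p = 0.0296) in both. The Dnm1l calls were held in 6 of 10 and 9 of 12 alternatives, the first lost without any 1 of its 4 libraries and the second without LbNOX DMSO replicate 2 or LbNOX oligomycin replicate 2 or 3.

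Mief2 fell with oligomycin in GFP myotubes, from 26.4 and 28.5 CPM to 20.6 and 17.5 CPM (-0.54 ± 0.13, adjusted p = 0.00514), and did not pass in LbNOX myotubes (-0.26 ± 0.10, adjusted p = 0.0697). GFP groups held 2 samples, and the 5 calls fell to 0 without replicate 2 of GFP myotubes with oligomycin and to 2 without its replicate 1 or DMSO replicate 2. Mff, Pink1 and Fundc1, called in untransduced myotubes, did not pass in either kind. Mean levels with oligomycin against DMSO in GFP myotubes were 158 against 143.5, 13.9 against 19.5 and 29.55 against 32.3 CPM. In LbNOX myotubes they were 153 against 142, 15.5 against 19.25 and 28.0 against 33.8 CPM. Fundc1 in GFP and Pink1 in LbNOX myotubes overlapped DMSO. Piericidin called none of the 10 in GFP myotubes (3.09% of all genes; 0 unadjusted in edgeR, 0 by DESeq2) or LbNOX myotubes (6.78%; 4 unadjusted, 1 by DESeq2), and none differed between LbNOX and GFP myotubes with DMSO (0.0242%; 0 unadjusted, 0 by DESeq2). The oligomycin and piericidin responses did not differ between LbNOX and GFP myotubes at any gene in edgeR (0% and 0% of 12397 genes called, with 525 and 567 genes at an unadjusted p under 0.05, and 1 and 2 called by DESeq2). For Opa1 the oligomycin response differed by 0.04 ± 0.13, for Mief1 by 0.04 ± 0.13 and for Fis1 by -0.03 ± 0.09.

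**Figure D5:**
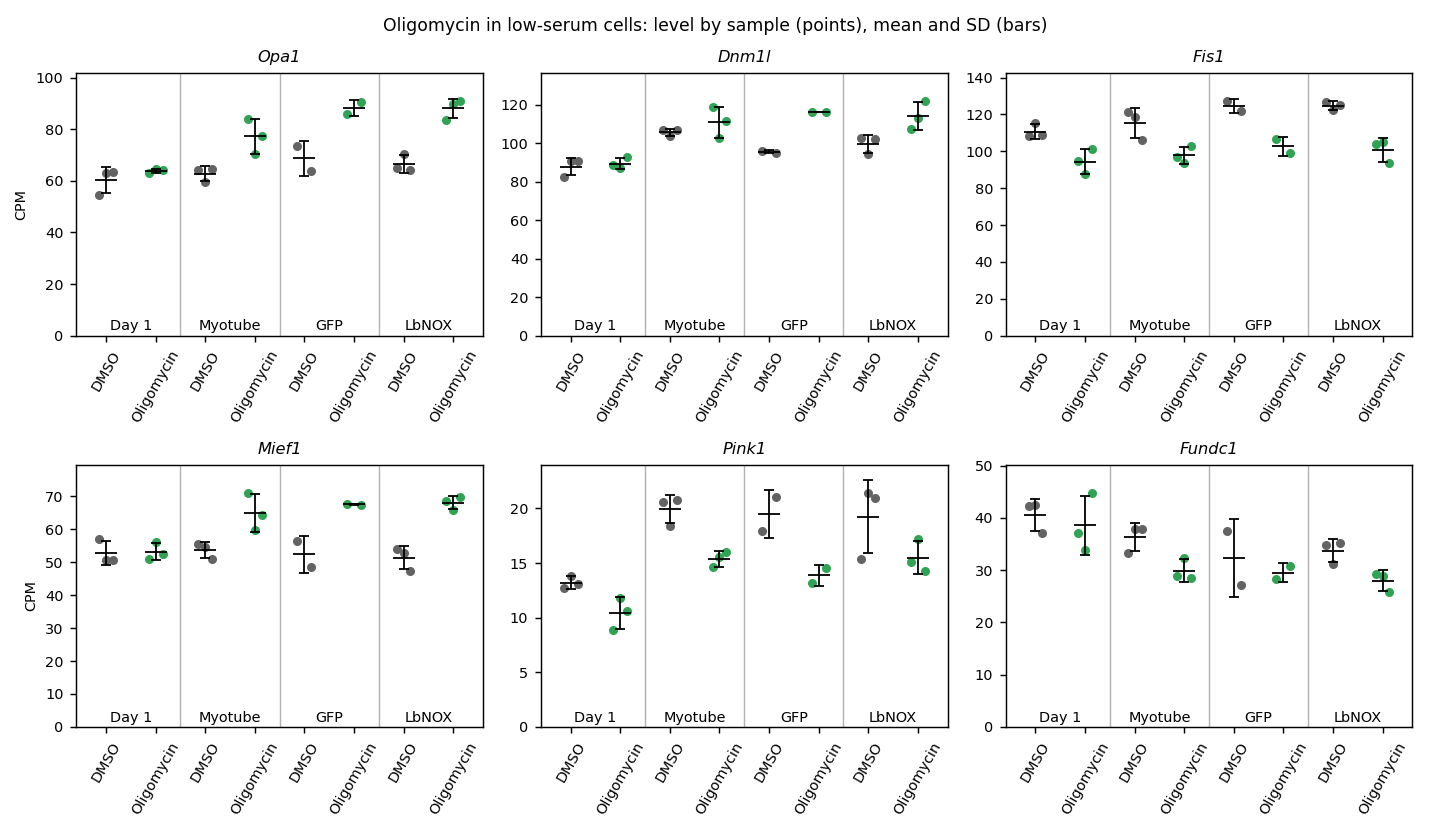
Level of Opa1, Dnm1l, Fis1, Mief1, Pink1 and Fundc1 in CPM (linear axis from 0) with DMSO or oligomycin in day-1 cells and in untransduced, GFP and LbNOX myotubes; points are samples and black bars the mean and SD. Opa1 and Mief1 are higher and Fis1 is lower with oligomycin in all 3 kinds of myotube, without overlap.

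Whether myotubes and day-1 cells answered differently from myoblasts was tested in a fit of the 33 samples of the 3 states. The piericidin response differed at 6 of 10 genes between myotubes and control myoblasts (46.5% of all genes) and at 5 of 10 between day-1 cells and control myoblasts (46.6%). In myotubes minus myoblasts the differences were 0.79 ± 0.16, adjusted p = 0.000233 for Fundc1, 0.67 ± 0.09, adjusted p = 1.83e-07 for Fis1 and -0.55 ± 0.09, adjusted p = 1.37e-05 for Dnm1l. The myotubes of this fit were the untransduced ones, and the mean Dnm1l levels of GFP and LbNOX myotubes with piericidin, from the values above, lay over their DMSO means without passing the test. Mfn2 (0.50 ± 0.11), Opa1 (0.46 ± 0.12) and Mief1 (-0.43 ± 0.11) also differed, and all 6 differences were called in 18 of 18 alternatives. Of these, only the Dnm1l difference did not pass in day-1 cells (-0.18 ± 0.09, adjusted p = 0.108), and there the Opa1 difference (0.41 ± 0.12) was held in 16 of 18 alternatives and lost without replicate 1 of day-1 cells with DMSO or with piericidin.

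The antimycin response differed at 3 of 10 genes between myotubes and myoblasts (47.9% of all genes), with 0.82 ± 0.16, adjusted p = 0.000127 for Fundc1 and -0.43 ± 0.09, adjusted p = 0.000238 for Dnm1l, and for Opa1 a difference of 0.29 ± 0.11 held in only 4 of 18 alternatives. The oligomycin response differed at Dnm1l alone between untransduced myotubes and myoblasts (-0.32 ± 0.09, adjusted p = 0.00771; 29% of all genes called). GFP and LbNOX myotubes were not in this fit. There Dnm1l was called higher with oligomycin, with means of 116.4 against 95.6 CPM and 114.3 against 99.9 CPM, the direction seen in myoblasts. Differences in the oligomycin response of Fis1 (0.17 ± 0.08), Mief1 (0.08 ± 0.11) and Opa1 (0.10 ± 0.11) did not pass. In day-1 cells minus control myoblasts the oligomycin response differed at 3 genes (24.9%), of which Dnm1l (-0.31 ± 0.09, adjusted p = 0.0117) was held in 17 of 18 alternatives, Fundc1 in 9 of 18 and Fis1 in 2 of 18. The control myoblast samples enter all of these differences.

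Across the 35 condition means, levels of Mief2 and Pink1 followed each other most closely of the 45 pairs of members (Pearson's r of log2 CPM 0.98). For this pair r was 0.19 with the mean of each state subtracted, -0.05 within myoblasts and 0.72 within myotubes. Of the 45 pairs, 9 had r above 0.7. With the mean of each state subtracted, 1 pair stayed above 0.7, Fis1 with Fundc1 (0.73), and 1 lay below -0.7, Dnm1l with Fundc1 (-0.73). Within the 17 myoblast conditions these pairs had r of 0.81 and -0.77, and within the 15 myotube conditions 0.30 and -0.59. In the myotube conditions Opa1 followed Mief1 (0.83) and Dnm1l (0.75) and ran against Pink1 (-0.76) and Fundc1 (-0.77). Conditions share inhibitors, lines and normalization, so these values are descriptions.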

How the data were processed

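Per the labels and the study's methods, polyadenylated RNA was made into Smart-seq2 libraries, which keep no strand, and sequenced as paired ends. The authors quantified transcripts with kallisto 0.44 against Ensembl mouse transcripts with the transgenes added, summed them to genes and deposited estimated counts per gene (submitters' processing notes also list bcl2fastq 2.20.0.422 and the build mm10). The study's own test was DESeq2's Wald test with shrunken fold changes.

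The deposited estimated counts were rounded and tested with edgeR 4.0.16 (quasi-likelihood, TMM, R 4.3.3, limma 3.58.1) in 6 fits of related conditions, keeping genes that reached 16 counts in all replicates of any condition (the study's filter), with p-values adjusted by Benjamini-Hochberg over every gene kept and called under 0.05. Levels are TMM-scaled CPM over all 96 libraries (6458295 to 15366745 counts each), and condition means were correlated as log2(CPM + 0.5). Differences are log2 fold changes with SE. Scripts were tested on simulated data. All 10 members were tested in every comparison, but in many of them values are given only for the members called. Genes of the lists are named, up to 2 in each direction by size, among those called and averaging 50 counts or more; the 3 genes most like a member were taken by r. The members and lists were chosen with earlier results of these data known. Alternatives were DESeq2 size factors, no filter, DESeq2 1.42.0's Wald test, a replicate block, plate position, only the groups compared, and leaving out each replicate.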

Additional observations from a re-analysis of the deposited data

Results flagged for a closer look

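Responses to an inhibitor that differed between lines or states of these cells, by the interaction term of the same edgeR fit, are given here as log2 differences of responses; adjusted p-values cover all genes of the comparison. The piericidin response, LbNOX minus control myoblasts, differed by -0.26 (Dnm1l), 0.68 (Fis1), -0.67 (Mief1) and 0.67 (Fundc1), with adjusted p-values from 1.96e-08 to 0.0397. The piericidin response, mitoLbNOX minus control myoblasts, differed by 0.34 (Mfn2), 0.30 (Opa1), 0.53 (Fis1), -0.64 (Mief1) and 0.54 (Fundc1), with adjusted p-values from 1.99e-06 to 0.0388. The piericidin response, NDI1 minus control myoblasts, differed by -0.57 (Dnm1l), 0.68 (Fis1), -0.77 (Mief1) and 0.75 (Fundc1), with adjusted p-values from 1.47e-07 to 0.00157. The antimycin response, LbNOX minus control myoblasts, differed by -0.38 (Mfn2), 0.46 (Fis1), -0.38 (Mief1), 0.78 (Mief2) and 0.49 (Fundc1), with adjusted p-values from 1.14e-05 to 0.0319. The antimycin response, mitoLbNOX minus control myoblasts, differed by -0.34 (Mfn2), 0.35 (Opa1), 0.38 (Mff) and -0.58 (Mief1), with adjusted p-values from 0.000159 to 0.0219. The piericidin response, untransduced myotubes minus control myoblasts, differed by 0.50 (Mfn2), 0.46 (Opa1), -0.55 (Dnm1l), 0.67 (Fis1), -0.43 (Mief1) and 0.79 (Fundc1), with adjusted p-values from 1.83e-07 to 0.00161. The antimycin response, untransduced myotubes minus control myoblasts, differed by 0.29 (Opa1), -0.43 (Dnm1l) and 0.82 (Fundc1), with adjusted p-values from 0.000127 to 0.0366. The oligomycin response, untransduced myotubes minus control myoblasts, differed by -0.32 (Dnm1l), with an adjusted p of 0.00771. GFP and LbNOX myotubes, where Dnm1l was called higher with oligomycin, were not in this fit. The piericidin response, day-1 cells minus control myoblasts, differed by 0.42 (Mfn2), 0.41 (Opa1), 0.64 (Fis1), -0.53 (Mief1) and 0.90 (Fundc1), with adjusted p-values from 3.83e-07 to 0.0045. The oligomycin response, day-1 cells minus control myoblasts, differed by -0.31 (Dnm1l), 0.23 (Fis1) and 0.50 (Fundc1), with adjusted p-values from 0.0117 to 0.0419. The control myoblast samples with DMSO and with the inhibitor enter every one of these differences, which are therefore not independent of each other.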

How the results depend on the processing

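No alternative reversed the direction of any called value. Of the 49 counts of called members, 45 kept within 1.5 times the main count with DESeq2 size factors, 37 with no filter on low counts, 45 with the replicate number as a block, 46 of 47 with plate position as a covariate, 45 with DESeq2's Wald test and 41 with only the groups compared. Plate position could not be fitted in day-1 cells, whose wells all lay on the outer rim. The replicate numbers did not pair the samples (mean correlation of same-numbered samples -0.0458 to 0.0437 over the 6 fits).

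With no filter, the counts that moved were 2 of the members for antimycin against piericidin, 3 for piericidin against oligomycin, 1 for antimycin against oligomycin, 0 for piericidin in mitoLbNOX myoblasts, 1 for oligomycin in LbNOX myoblasts, 3 for the antimycin response of LbNOX, 0 for antimycin, for 5% oxygen and for each of the 3 oligomycin combinations in myotubes, and 1 for the oligomycin response of day-1 cells. This setting tests more genes by construction, and the part of that in these moves was not tested. Of the 125 called values, 88 were the same with no filter and 37 were weaker. With DESeq2 size factors the counts that moved were 0 for piericidin in mitoLbNOX myoblasts, 0 for antimycin in myotubes, 1 for oligomycin in 5% oxygen and 1 for piericidin in LbNOX myotubes. With the replicate block they were 2 for piericidin in mitoLbNOX myoblasts, 0 for antimycin and 1 for BAM15 in myotubes, and 2 for oligomycin in day-1 cells. With plate position, antimycin in myotubes gave 0. With DESeq2's Wald test they were 0 for antimycin in myotubes, 1 for oligomycin with piericidin, 1 for oligomycin in 5% oxygen and 1 for piericidin in LbNOX myotubes. With only the groups compared they were 3 for antimycin against piericidin, 0 for antimycin and for each oligomycin combination in myotubes, 1 for piericidin in LbNOX myotubes, 0 for oligomycin in day-1 cells and 1 for the oligomycin response of day-1 cells. The cause of the other shifts was not tested. Pairs of members with r above 0.7 numbered 9 over all conditions, 2 in myoblasts (both among the 9) and 4 in myotubes (1 among the 9), and r changed sign in 18 and 21 of the 45 pairs.

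Leaving out 1 replicate gave 3 to 4 members for antimycin against piericidin, 1 to 4 for antimycin against oligomycin, 0 to 1 for piericidin in mitoLbNOX myoblasts, 1 to 4 for antimycin and 1 to 3 for oligomycin in LbNOX myoblasts, 3 to 5 for the antimycin and 0 to 1 for the oligomycin response of LbNOX, 0 to 2 for antimycin and 0 to 1 for 5% oxygen in myotubes, 0 to 2 for oligomycin with piericidin, 0 to 4 with BAM15 and 0 to 2 in 5% oxygen, 0 to 4 for oligomycin in GFP myotubes, and 0 to 1 for oligomycin and 1 to 2 for its response in day-1 cells. Depth limited Mfn1 (23 to 129 counts a library) and Pink1 in myoblasts most, with an SE of 0.23 to 0.24 for each inhibitor in control myoblasts.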
